A study of Mus musculus with 16 samples.

Results

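The genes described here are 31 genes of cholesterol and fatty acid synthesis, read in organoids grown from the epithelium that lines the mouse uterus. They were chosen by name, as the rows of the deposited table whose Ensembl identifiers carry the symbols of a fixed list, and all 31 were among its 23306 genes. The list has a sterol branch of 18 enzymes, a fatty acid branch of 7 enzymes, and 6 genes called regulators here, of which 5 act on the SREBP transcription factors or encode them and the sixth, Stard4, moves cholesterol between membranes. All 31 passed the filter on low values that left 16509 genes for testing, a normalized read count of at least 10 in at least 4 libraries.

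RNA sequencing was run on 16 libraries, 4 in each of 4 groups. The cKO organoids were labelled Tgfbr2 cKO (Tgfbr2 PRcre+) and came from mice in which the PR-Cre recombinase, named for the progesterone receptor, deletes Tgfbr2, the gene of the type II TGF-beta receptor. The control organoids were labelled Tgfbr2 FF, which marks the floxed gene without that recombinase. Libraries M13 to M16 were cKO organoids under E2/MPA, M5 to M8 cKO organoids under vehicle, M9 to M12 control organoids under E2/MPA and M1 to M4 control organoids under vehicle. Under E2/MPA, organoids 2 days in culture were given estradiol (E2) at 10 nM for 6 days, joined over the last 4 days by 1 µM of the synthetic progestin medroxyprogesterone acetate (MPA). Under vehicle they were given vehicle alone over the same 6 days. The labels state neither the age of the mice nor whether libraries in a group are from different mice, so p-values here reflect the variation among these libraries, some or all of which may be technical.

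Cholesterol is built from acetyl-CoA through mevalonate, farnesyl diphosphate, squalene and lanosterol, and fatty acids are built from cytosolic acetyl-CoA by carboxylation, chain extension and desaturation. Both routes are under SREBP transcription factors, which are held in the endoplasmic reticulum by SCAP and the INSIG proteins when sterols are plentiful and are cut and released to the nucleus when sterols fall. The endometrial epithelium secretes lipid-containing fluid under ovarian hormones, and the progestin phase is when its glands become secretory.

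Recovered depth was 14372111 to 20016836 reads per library. Tgfbr2 was read in every library, at 4326 ± 850 in cKO organoids under E2/MPA, 4325 ± 811 in cKO under vehicle, 5356 ± 1685 in control under E2/MPA and 6014 ± 1467 in control under vehicle (normalized read count, mean ± SD, n = 4). These values are totals over the gene and do not check the deletion of some of its exons. Epithelial markers (9 genes) had a mean log2 level of 12.66 to 13.19 in every library. Stromal markers (10 genes) were uneven, at 10.60 in M4, 10.58 in M12, 10.36 in M16, 9.59 in M8, 9.40 in M9 and 8.39 in M1, against 4.72 to 6.98 in the other libraries. In bulk RNA, fewer cells of a type and less RNA per cell cannot be told apart.

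E2/MPA raised one set of these enzymes in both genotypes, led by Fasn, the fatty acid synthase, with Acss2 in the same branch and Pmvk and Lss in the sterol branch. In limma's test of all 16509 genes, at a Benjamini-Hochberg adjusted p under 0.05, 4 of the 31 genes changed in cKO organoids and 7 in control organoids, all of them upward. Of all genes tested, 4.19% were called in cKO (2.71% as higher and 1.48% as lower) and 8.9% in control (5.39% as higher and 3.51% as lower). The mean of both genotypes' responses, which has the smaller error, called 16 of the 31, with 15 higher and 1, Scap, lower. Its background was 19.8% of all genes, with 10.8% higher and 9.03% lower.

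The branches differed in these counts, and no test of that difference was made. In the sterol branch 12 of 18 genes were called in the mean response, all higher, with a median log2 fold change of 0.35. In the fatty acid branch 3 of 7 were called, all higher, and the median was also 0.35. Among the regulators 1 of 6 was called, as lower, and the median was 0.06. The median over all genes tested was -0.0024. By genotype the medians were 0.33 in cKO and 0.43 in control for the sterol branch, 0.40 in cKO and 0.29 in control for the fatty acid branch, and 0.08 in cKO and 0.07 in control for the regulators. The fatty acid median rested on single libraries, since it was 0.22 in cKO without M14 and 0.08 in control without M12.

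**Figure D1:**
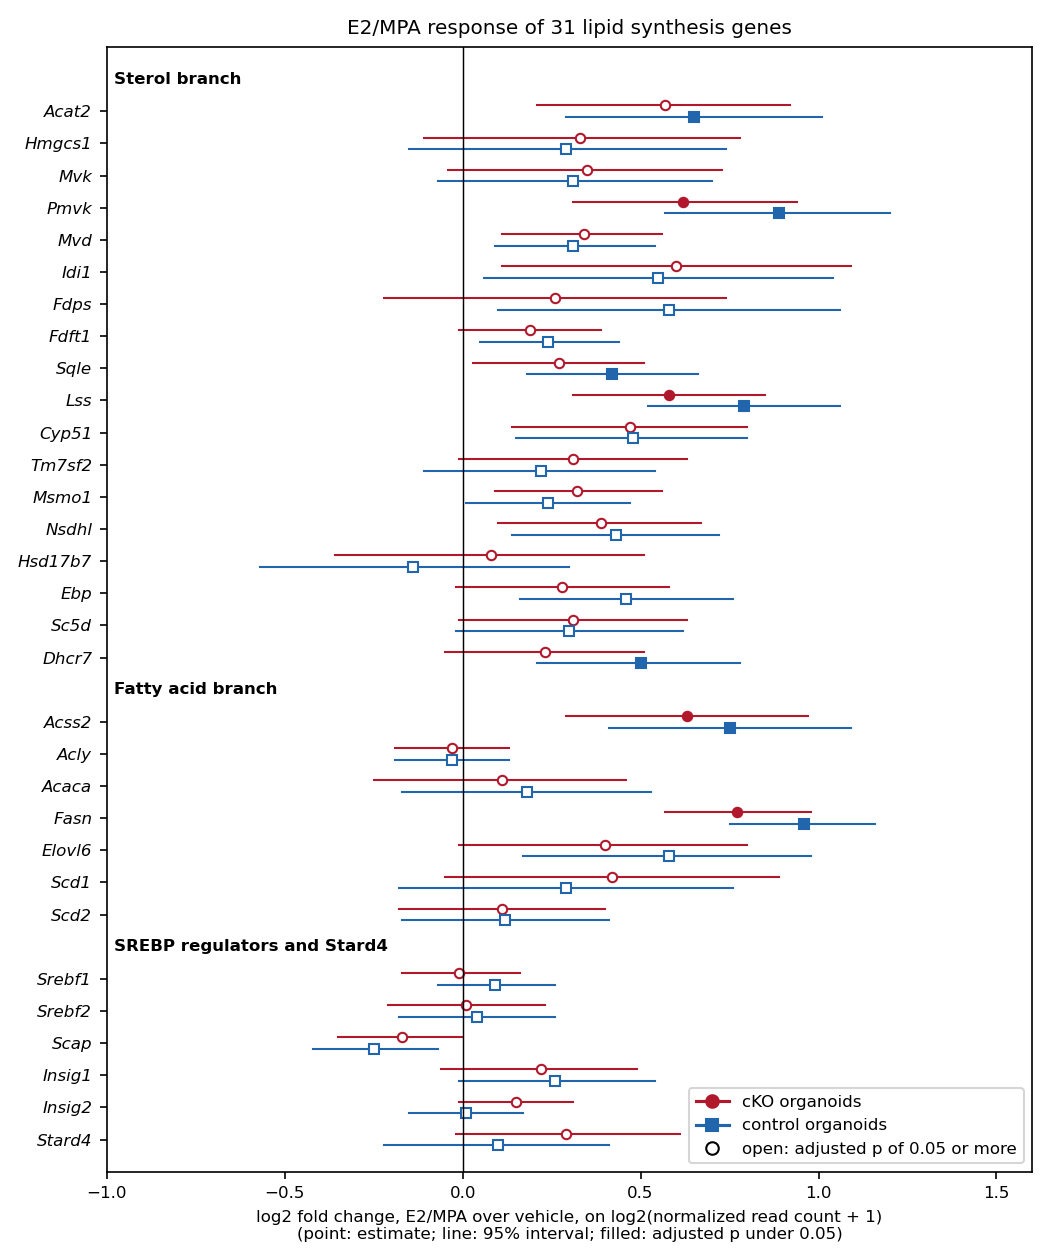
Log2 fold change of each of the 31 genes under E2/MPA over vehicle, on log2(normalized read count + 1), in cKO organoids (red circles) and control organoids (blue squares), with 95% intervals from limma. Filled symbols have an adjusted p under 0.05, which holds for Pmvk, Lss, Acss2 and Fasn in cKO and for these 4 and Acat2, Sqle and Dhcr7 in control.

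The promoters shown are those of the 6 members with the lowest adjusted p in the mean response that had one in the RefSeq table. Each is the 250 bases before the RefSeq transcription start in build GRCm38.p6, printed 5′ to 3′ on the gene's strand. Capitals mark each CCAAT or its reverse complement ATTGG, the letters of the CCAAT box, a motif bound by the factor NF-Y.
Fasn, chr11:120824548-120824797, minus strand: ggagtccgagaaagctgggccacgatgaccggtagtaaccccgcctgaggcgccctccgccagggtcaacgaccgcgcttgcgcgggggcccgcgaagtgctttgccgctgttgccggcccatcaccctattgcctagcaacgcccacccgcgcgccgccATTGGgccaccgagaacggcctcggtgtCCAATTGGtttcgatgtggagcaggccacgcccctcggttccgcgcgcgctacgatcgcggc
Acss2, chr2:155517793-155518042, plus strand: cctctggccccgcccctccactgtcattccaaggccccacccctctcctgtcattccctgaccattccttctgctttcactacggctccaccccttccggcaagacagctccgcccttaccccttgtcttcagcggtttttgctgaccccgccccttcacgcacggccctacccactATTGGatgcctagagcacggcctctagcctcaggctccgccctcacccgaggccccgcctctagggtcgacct
Lss, chr10:76531355-76531604, plus strand: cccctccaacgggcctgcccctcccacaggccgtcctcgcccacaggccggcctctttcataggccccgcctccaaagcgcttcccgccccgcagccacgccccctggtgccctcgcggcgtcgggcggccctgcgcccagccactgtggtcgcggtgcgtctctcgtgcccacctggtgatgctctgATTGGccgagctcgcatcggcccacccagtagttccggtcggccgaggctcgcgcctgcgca
Pmvk, chr3:89454291-89454540, plus strand: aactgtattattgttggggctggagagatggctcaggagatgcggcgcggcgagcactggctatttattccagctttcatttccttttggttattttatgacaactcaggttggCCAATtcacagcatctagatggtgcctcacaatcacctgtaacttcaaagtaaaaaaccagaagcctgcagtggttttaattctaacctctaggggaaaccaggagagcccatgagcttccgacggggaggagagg
Mvd, chr8:122443423-122443672, minus strand: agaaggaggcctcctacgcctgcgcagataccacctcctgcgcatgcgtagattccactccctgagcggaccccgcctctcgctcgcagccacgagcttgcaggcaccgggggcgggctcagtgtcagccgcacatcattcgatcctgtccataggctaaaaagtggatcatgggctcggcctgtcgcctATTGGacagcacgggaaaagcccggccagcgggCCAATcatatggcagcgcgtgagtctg
Acat2, chr17:12960726-12960975, minus strand: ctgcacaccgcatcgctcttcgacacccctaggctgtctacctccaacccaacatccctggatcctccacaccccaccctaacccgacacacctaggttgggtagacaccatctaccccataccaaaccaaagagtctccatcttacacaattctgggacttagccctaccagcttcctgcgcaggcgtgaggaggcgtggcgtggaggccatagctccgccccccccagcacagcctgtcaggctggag

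Fasn had 3 matches, at 90 to 86, 62 to 58 and 59 to 55 bases before the start, and the last 2 overlap. Lss had 1 match at 62 to 58 bases, Acss2 1 at 73 to 69 bases and Pmvk 1 at 136 to 132 bases before the start. Mvd had 2, at 60 to 56 and at 27 to 23 bases, and Acat2 had none. Pmvk has 2 starts in the RefSeq table, and the window of the other start held no match. Promoters were in the table for 25 of the 31 genes, all but Sqle, Fdft1, Fdps, Scd1, Scd2 and Stard4. A CCAAT box in either strand was in 20 of these 25 genes (80%), against 37.5% of the 27025 genes of the table. Members not called in the mean response were among the 20, such as Hmgcs1, Srebf1 and Srebf2. The E-box CACGTG was in 5 of 25 (20%), namely Dhcr7, Hsd17b7, Sc5d, Insig1 and Scap, against 6.86% of all genes. The core of the sterol regulatory element, searched as TCACNCCAC on both strands, was in 1 of 25, Hmgcs1, against 1.22% of all genes. The palindromic hormone response element of the progesterone and glucocorticoid receptors, searched on both strands, was in 0 of 25, against 0.44%. At backgrounds this low, 0 or 1 match in 25 genes tells little about the members. These are matches of letters in these windows and not measured binding, and their part in the response was not tested.

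Fasn makes palmitate from malonyl-CoA. In cKO organoids it was at 7647, 10306, 8116 and 9177 under E2/MPA, against 5502, 5409, 4544 and 5100 under vehicle. In control organoids it was at 10616, 11318, 11509 and 10031 under E2/MPA, against 5276, 5480, 5454 and 6223 under vehicle. No E2/MPA library of either genotype came down to a vehicle library of either. It rose 1.71-fold in cKO (log2 change 0.77, SE 0.10, adjusted p = 0.00038) and 1.94-fold in control (0.96, SE 0.10, adjusted p = 4e-05). Both calls held in each of the 30 alternatives run for them.

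Acss2 makes acetyl-CoA from acetate. In cKO it was at 262, 376, 246 and 309 under E2/MPA, against 196, 207, 160 and 197 under vehicle. In control it was at 290, 326, 360 and 332 under E2/MPA, against 171, 210, 154 and 254 under vehicle. The groups did not overlap within either genotype, though the lowest cKO E2/MPA library, M15, lay below the highest control vehicle library, M4. The rise was 1.55-fold in cKO (log2 change 0.63, SE 0.16, adjusted p = 0.0389) and 1.68-fold in control (0.75, SE 0.16, adjusted p = 0.00943). The cKO call was lost when any of M5, M6, M7, M8, M10, M13, M14 or M16 was left out, and without M4, M8, M12 and M16 together. The control call was lost in a fit of only the groups compared (adjusted p = 0.0513).

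Elovl6 extends palmitate to stearate. It was at 374, 708, 479 and 445 in cKO under E2/MPA, against 425, 353, 358 and 350 under vehicle, and at 534, 613, 508 and 819 in control under E2/MPA, against 369, 383, 369 and 529 under vehicle. M13 in cKO and M4 in control made the groups overlap. It was called in the mean response only (log2 fold change 0.49, SE 0.13, adjusted p = 0.0191).

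The other 4 enzymes of the fatty acid branch were not called. Acly, which cuts citrate into acetyl-CoA, was at 6978, 6757, 6251 and 6874 in cKO under E2/MPA, against 7482, 6886, 6933 and 6118 under vehicle, and at 6291, 5516, 5858 and 6530 in control under E2/MPA, against 6517, 5728, 6336 and 6129 under vehicle. Its mean response was -0.03 on the log2 scale with a 95% interval of -0.14 to 0.08. Scd2, a stearoyl-CoA desaturase, was at 29258, 33298, 26634 and 32983 in cKO under E2/MPA, against 31336, 26039, 25614 and 30289 under vehicle. In control Scd2 was at 29312, 30886, 25884 and 38674 under E2/MPA, against 27535, 28188, 24403 and 34070 under vehicle. Its mean response was 0.12 (interval -0.09 to 0.32), and the groups of both genes overlapped in both genotypes. Acaca, which makes malonyl-CoA for Fasn, ranged from 719 to 1061 in cKO under E2/MPA, against 693 to 909 under vehicle, and from 819 to 1117 in control under E2/MPA, against 649 to 1068 under vehicle (mean response 0.14, adjusted p = 0.442). The count of Acaca is less certain, because 64.3% of its transcript is up to 99.2% identical to Gm5182, which averaged 161, so reads could be shared. Scd1, another stearoyl-CoA desaturase, ranged from 2447 to 3462 in cKO under E2/MPA, against 2045 to 2395 under vehicle, and from 2076 to 4801 in control under E2/MPA, against 1787 to 3186 under vehicle (mean response 0.35, adjusted p = 0.127). Within the branch, Acss2 and Fasn were thus called in both genotypes, while Acly and Acaca, which make acetyl-CoA from citrate and malonyl-CoA from acetyl-CoA, were called in neither.

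**Figure D2:**
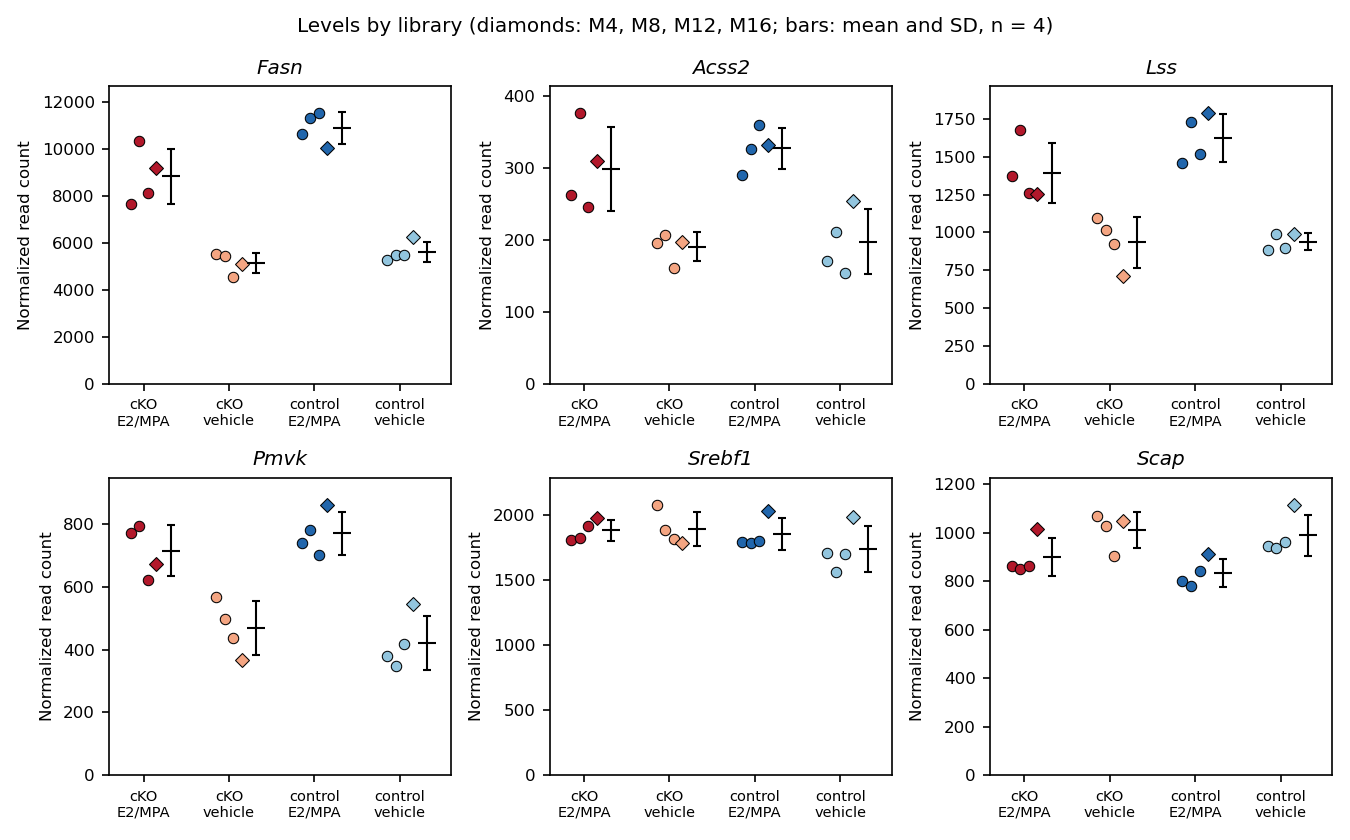
Normalized read count of 6 genes in each of the 16 libraries, by group, with the mean and SD of 4 libraries beside the points and diamonds for M4, M8, M12 and M16, the libraries highest in stromal markers in their groups. The 8 E2/MPA libraries of Fasn lie between 7647 and 11509 and its 8 vehicle libraries between 4544 and 6223, while the groups of Srebf1 overlap throughout.

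In the sterol branch, the first steps lead to mevalonate and its activated phosphates. Acat2 joins 2 acetyl-CoA molecules. It was at 920, 1006, 777 and 1146 in cKO under E2/MPA, against 765, 593, 669 and 566 under vehicle, and at 871, 946, 889 and 1374 in control under E2/MPA, against 584, 580, 581 and 841 under vehicle. The groups did not overlap within either genotype, and M12 and M4 stood well above the rest of their groups. It was called in control (log2 change 0.65, SE 0.17, adjusted p = 0.0252) and in the mean response (0.61, adjusted p = 0.00253), but not in cKO (0.57, SE 0.17, adjusted p = 0.0748). The control call was lost without M1, M2, M3 or M10, and in a fit of only the groups compared. Part of its transcript is 97.7% identical to that of Acat3, which averaged 39, and another stretch is 98.7% identical to one in Tcp1, which averaged 4529, so reads could be shared.

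Hmgcs1, the HMG-CoA synthase, had no adjusted p under 0.05 in the fit of all 16 libraries by group. It was at 1610, 2421, 1628 and 2034 in cKO under E2/MPA, against 1473, 1456, 1535 and 1548 under vehicle, and at 1774, 1652, 1533 and 2929 in control under E2/MPA, against 1495, 1228, 1390 and 2282 under vehicle. The cKO groups did not overlap, whereas in control the vehicle library M4 lay above 3 of the 4 E2/MPA libraries. The mean response was 0.31 (interval 0.00 to 0.63, adjusted p = 0.15), and it passed the threshold without M4 and in the fit with libraries 8 numbers apart as a replicate block (adjusted p = 0.0162), a pairing that the labels do not state. Mvk, the mevalonate kinase, ranged from 345 to 554 in cKO under E2/MPA, against 302 to 359 under vehicle, and from 349 to 573 in control under E2/MPA, against 278 to 449 under vehicle (mean response 0.33, adjusted p = 0.0844).

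Pmvk, the phosphomevalonate kinase, was at 770, 794, 622 and 671 in cKO under E2/MPA, against 568, 497, 438 and 366 under vehicle. In control it was at 739, 780, 702 and 862 under E2/MPA, against 378, 347, 418 and 544 under vehicle. All 8 E2/MPA libraries lay above all 8 vehicle libraries, which was also so for Lss and Fasn and for 2.44% of all genes tested. The opposite order was seen for 0 members and 1.08% of all genes. Pmvk rose 1.54-fold in cKO (log2 change 0.62, SE 0.15, adjusted p = 0.0277) and 1.85-fold in control (0.89, SE 0.15, adjusted p = 0.00211). The cKO call was lost without M7, M8, M13 or M14.

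Mvd decarboxylates the diphosphate to isopentenyl diphosphate, and Idi1 isomerises that product. Mvd was at 670, 769, 646 and 821 in cKO under E2/MPA, against 606, 590, 567 and 530 under vehicle, and at 669, 691, 694 and 898 in control under E2/MPA, against 543, 563, 587 and 672 under vehicle. Idi1 was at 629, 1016, 704 and 881 in cKO under E2/MPA, against 504, 504, 530 and 560 under vehicle, and at 811, 706, 602 and 1367 in control under E2/MPA, against 531, 480, 483 and 828 under vehicle. For both genes the groups were apart in cKO and overlapped in control through M4. Both were called in the mean response only, Mvd at 0.33 (SE 0.07, adjusted p = 0.00709) and Idi1 at 0.58 (SE 0.16, adjusted p = 0.0222). Idi1 shares stretches of its transcript with 3 other annotated genes.

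The middle of the route joins isoprene units into squalene. Fdps, the farnesyl diphosphate synthase, ranged from 108 to 161 in cKO under E2/MPA, against 83.6 to 132 under vehicle, and from 127 to 198 in control under E2/MPA, against 70 to 152 under vehicle (mean response 0.42, adjusted p = 0.0793). Its value is uncertain, because 5 other annotated genes carry a near-identical sequence, among them Gm3571, which averaged 169. Fdft1, the squalene synthase, was at 2237, 2314, 2141 and 2333 in cKO under E2/MPA, against 2170, 1875, 2038 and 1856 under vehicle, and at 1989, 2061, 1953 and 2567 in control under E2/MPA, against 1708, 1666, 1756 and 2091 under vehicle. The groups of Fdft1 overlapped in both genotypes, by M5 in cKO and M4 in control. Its mean response was 0.22 (SE 0.07, adjusted p = 0.0318), and the call was lost without any 1 of 8 libraries (M1, M2, M3, M6, M8, M13, M14 and M16), under quantile normalization and under upper-quartile rescaling. Fdft1 overlaps Ctsb on the opposite strand by 774 bases in GENCODE M21, and Ctsb averaged 76369. Whether reads were counted by strand was not given in the sources used here.

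Sqle oxidises squalene and is a rate-limiting step of the route. It was at 1932, 2106, 1829 and 1888 in cKO under E2/MPA, against 1820, 1670, 1583 and 1386 under vehicle. In control it was at 1717, 2079, 2160 and 2356 under E2/MPA, against 1270, 1665, 1584 and 1679 under vehicle. The groups were apart in each genotype by small gaps. Sqle was called in control (log2 change 0.42, SE 0.11, adjusted p = 0.0286) and in the mean response (0.35, adjusted p = 0.00701), and not in cKO (0.27, SE 0.11, adjusted p = 0.209). The control call was lost without M1, M10, M11 or M12, and in a fit of only the groups compared.

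Lss folds oxidised squalene into lanosterol, the first sterol. In cKO it was at 1372, 1676, 1260 and 1252 under E2/MPA, against 1097, 1015, 920 and 709 under vehicle. In control it was at 1458, 1731, 1519 and 1789 under E2/MPA, against 880, 991, 898 and 988 under vehicle. It rose 1.49-fold in cKO (log2 change 0.58, SE 0.13, adjusted p = 0.0181) and 1.72-fold in control (0.79, SE 0.13, adjusted p = 0.00166). The cKO call was lost without M7, M13 or M14 and in a fit of only the groups compared, and the control call held in all 30 alternatives.

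From lanosterol, 8 of the listed enzymes lead to cholesterol, and 5 of them were called in the mean response. Cyp51, the lanosterol demethylase, was at 3181, 3688, 2473 and 3210 in cKO under E2/MPA, against 2660, 2356, 1881 and 2126 under vehicle, and at 2881, 3023, 2669 and 4082 in control under E2/MPA, against 2057, 2063, 2146 and 2788 under vehicle. M5 in cKO and M4 in control made the groups overlap. Its responses were nearly equal, 0.47 in cKO and 0.48 in control, and only the mean passed the test (0.47, SE 0.11, adjusted p = 0.00742). Msmo1 and Nsdhl act in turn to remove the methyl groups at carbon 4. Msmo1 was at 2674, 2991, 2426 and 2822 in cKO under E2/MPA, against 2356, 2147, 2111 and 2086 under vehicle, and at 2629, 2237, 2402 and 3220 in control under E2/MPA, against 2198, 1978, 2082 and 2585 under vehicle. Nsdhl was at 922, 1019, 810 and 901 in cKO under E2/MPA, against 781, 742, 634 and 635 under vehicle, and at 786, 855, 821 and 1159 in control under E2/MPA, against 627, 626, 589 and 837 under vehicle. For both, the cKO groups were apart and the control groups overlapped through M4. The mean response was 0.28 for Msmo1 (SE 0.08, adjusted p = 0.019) and 0.41 for Nsdhl (SE 0.09, adjusted p = 0.00752). The call of Msmo1 was lost under quantile normalization.

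Ebp, a sterol isomerase, was at 726, 752, 639 and 655 in cKO under E2/MPA, against 537, 604, 590 and 552 under vehicle, and at 601, 811, 781 and 774 in control under E2/MPA, against 423, 641, 669 and 452 under vehicle. Its control groups overlapped through M9, M2 and M3 rather than M4. The mean response was 0.37 (SE 0.10, adjusted p = 0.0167), and the call was lost without M4, M8, M12 and M16 together. Dhcr7, the last enzyme before cholesterol on one route, was at 462, 623, 508 and 424 in cKO under E2/MPA, against 458, 443, 412 and 392 under vehicle, and at 524, 695, 636 and 508 in control under E2/MPA, against 373, 497, 426 and 377 under vehicle. The control groups were apart, by 508 in M12 against 497 in M2, and the cKO groups overlapped. Dhcr7 was called in control (0.50, SE 0.13, adjusted p = 0.0307) and in the mean response (0.36, adjusted p = 0.014), and not in cKO (0.23, SE 0.13, adjusted p = 0.384). Its control call was lost without M1, M3, M4, M10 or M11, and in a fit of only the groups compared.

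Tm7sf2, Hsd17b7 and Sc5d were not called. Sc5d, a sterol desaturase, was at 1538, 1695, 1407 and 1501 in cKO under E2/MPA, against 1341, 1300, 1146 and 1153 under vehicle, and at 1536, 1179, 1332 and 1944 in control under E2/MPA, against 1262, 920, 1186 and 1488 under vehicle. Its mean response of 0.31 (interval 0.08 to 0.53) had an adjusted p of 0.055. Tm7sf2, a sterol reductase that shares 532 exon bases with Vps51 on its own strand, ranged from 314 to 394 in cKO under E2/MPA, against 236 to 295 under vehicle, and from 307 to 474 in control under E2/MPA, against 271 to 406 under vehicle (mean response 0.26, adjusted p = 0.0988). Hsd17b7, a keto reductase, was the sterol enzyme with no direction, at 798 to 1285 in cKO under E2/MPA, against 845 to 1021 under vehicle, and at 677 to 1343 in control under E2/MPA, against 842 to 1369 under vehicle (mean response -0.03, adjusted p = 0.908).

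The SREBP genes themselves were level. Srebf2, whose protein acts mainly on sterol genes, was at 6205, 5886, 5793 and 6631 in cKO under E2/MPA, against 6938, 5898, 5754 and 5852 under vehicle, and at 5641, 5176, 5303 and 6401 in control under E2/MPA, against 5918, 4692, 5013 and 6432 under vehicle. Srebf1, whose protein acts mainly on fatty acid genes, was at 1811, 1828, 1914 and 1981 in cKO under E2/MPA, against 2082, 1887, 1817 and 1786 under vehicle, and at 1793, 1783, 1804 and 2036 in control under E2/MPA, against 1707, 1563, 1704 and 1986 under vehicle. All these groups overlapped. The mean response was 0.02 for Srebf2 (interval -0.13 to 0.18, adjusted p = 0.874) and 0.04 for Srebf1 (interval -0.07 to 0.16, adjusted p = 0.623), and both signs turned under quantile normalization. Counts over a whole gene do not separate the transcripts of Srebf1 and do not measure cut, nuclear protein.

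Scap, which carries the SREBP proteins out of the endoplasmic reticulum, was the single member called as lower. It was at 864, 852, 863 and 1015 in cKO under E2/MPA, against 1070, 1026, 902 and 1048 under vehicle. In control it was at 801, 781, 840 and 913 under E2/MPA, against 945, 935, 960 and 1116 under vehicle. The control groups did not overlap, which was so in this direction for 5.49% of all genes tested, and the cKO groups overlapped through M16. Its mean log2 fold change was -0.21 (SE 0.06, adjusted p = 0.0212), with -0.17 in cKO (adjusted p = 0.282) and -0.25 in control (adjusted p = 0.0793).

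Insig1, a sterol-sensing anchor of SCAP and itself a known SREBP target, ranged from 1262 to 1611 in cKO under E2/MPA, against 1083 to 1257 under vehicle, and from 1171 to 1708 in control under E2/MPA, against 921 to 1342 under vehicle. The cKO groups were apart, and the mean response of 0.24 did not pass the test (interval 0.04 to 0.43, adjusted p = 0.0813). Insig2, the second anchor, ranged from 872 to 945 in cKO under E2/MPA, against 745 to 894 under vehicle, and from 728 to 883 in control under E2/MPA, against 740 to 810 under vehicle (mean response 0.08, adjusted p = 0.326). Stard4 ranged from 1709 to 1980 in cKO under E2/MPA, against 1115 to 1731 under vehicle, and from 1360 to 2054 in control under E2/MPA, against 1396 to 1688 under vehicle (mean response 0.20, adjusted p = 0.208).

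Counted by library, 16 of the 31 genes had every cKO E2/MPA library above every cKO vehicle library, where 8.01% of all genes tested did, and 0 had every one below, where 5.8% of all genes did. In control organoids 7 of the 31 did, against 6.66% of all genes. The 7 in control were the 7 that limma called there. In the sterol branch the count was 12 of 18 in cKO and 5 of 18 in control. The control groups overlapped for many members through M4, a vehicle library that was the highest of its group in 25 of the 31 genes. M12 was the highest control E2/MPA library in 26 of the 31, M5 the highest cKO vehicle library in 23 and M14 the highest cKO E2/MPA library in 19. Averaged over the sterol branch, the log2 difference from each gene's vehicle mean was 0.28, 0.54, 0.21 and 0.41 in M13 to M16, 0.11, 0.02, -0.06 and -0.07 in M5 to M8, 0.29, 0.37, 0.26 and 0.75 in M9 to M12, and -0.09, -0.13, -0.06 and 0.28 in M1 to M4. M4 thus lay at the level of M9, M11 and M13.

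**Figure D3:**
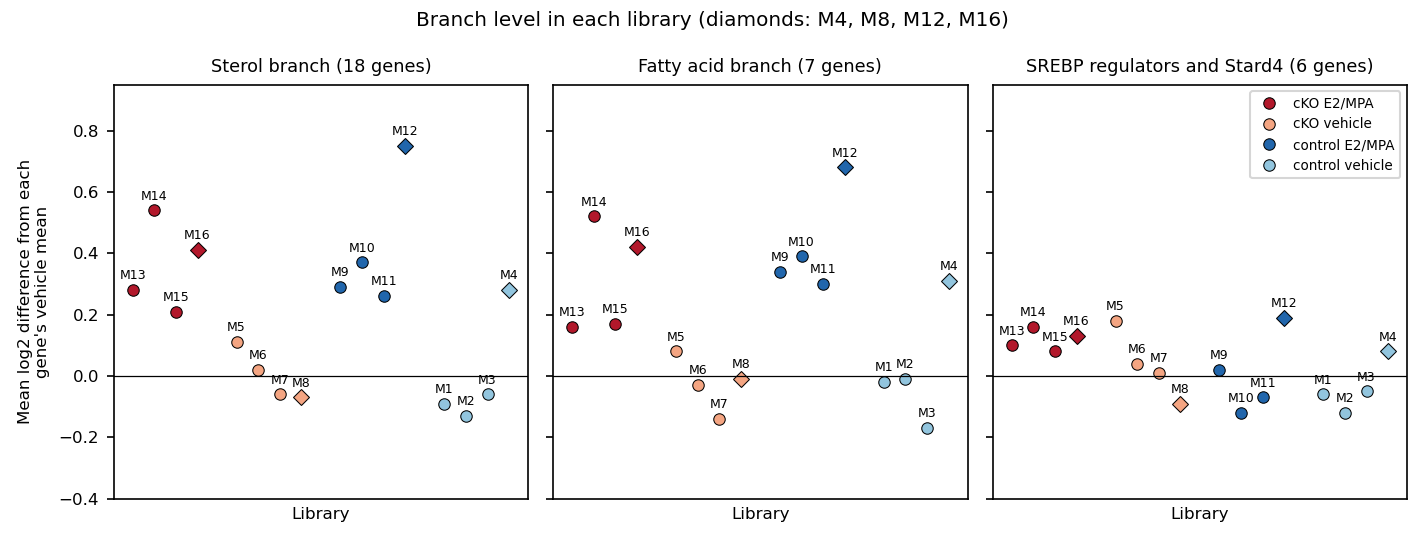
Mean log2 difference of each branch from its genes' mean over the 8 vehicle libraries, in each library, by group, with diamonds for M4, M8, M12 and M16. In the sterol branch M12 lies at 0.75 and the vehicle library M4 at 0.28, while the regulators stay between -0.12 and 0.19 in all 16 libraries.

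M4 and M12 were also the libraries with the most stromal RNA by the marker list, at a mean log2 level of 10.60 and 10.58. By mean log2 level they were also the highest in macrophage and leukocyte markers (6 genes), at 8.58 and 9.20, against 5.09 to 7.04 in the other 14 libraries. By the summed count of these markers M12 was the highest, at 4705, but M4, at 3005, also lay below M3, M5, M6, M7, M13 and M15, which were at 3040 to 3327. In the cKO libraries highest in stromal markers, the sterol branch was at 0.41 in M16 and -0.07 in M8, beside 0.54 in M14. Without M4, M8, M12 and M16, 4 members were called in cKO, 10 in control and 19 in the mean response, where 5.81%, 13.4% and 22.4% of all genes were. That setting kept M9 and M1, at stromal levels of 9.40 and 8.39, so the control libraries left were still uneven in stromal RNA. With the stromal mean as a covariate, 9 were called in cKO, 14 in control and 18 in the mean response, where 17.8%, 24.7% and 35.4% of all genes were. The counts of all genes thus moved under these settings too. Summed over the 10 stromal markers, the normalized read count was 2562 to 36841 in cKO under E2/MPA, against 1789 to 22561 under vehicle, and 1752 to 42109 in control under E2/MPA, against 846 to 53725 under vehicle. Lum, Thy1 and Postn were at 0 in at least 1 library each. Of the 10 markers 1, Postn, was called in the mean response (log2 fold change 5.14), and of the 6 macrophage and leukocyte markers none was (1 at an unadjusted p under 0.05). The summed macrophage and leukocyte count was 1988 to 3295 in cKO under E2/MPA, against 1679 to 3327 under vehicle, and 2104 to 4705 in control under E2/MPA, against 2039 to 3051 under vehicle, and its part in the results was not tested. Of 5 adipocyte markers, Fabp4 was the only one with a row in the table, and Fabp4 rose in the mean response, at 91.4 ± 13.7 in cKO under E2/MPA and 21.5 ± 10 under vehicle, and at 292 ± 146 in control under E2/MPA and 75.6 ± 88.8 under vehicle (log2 fold change 2.38, adjusted p = 0.0025). Fabp4 is also made by macrophages and endothelium, and its part in these results was not tested.

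The libraries of a group spread differently by gene. The SD within groups, pooled over the 4 groups on the log2 scale, was lowest for Acly, Srebf1 and Insig2, at 0.10, and highest for Idi1 at 0.35, Scd1 at 0.34, Fdps at 0.33 and Hmgcs1 at 0.32. Its median was 0.22 in the sterol branch, 0.23 in the fatty acid branch and 0.13 among the regulators, against 0.26 over all genes tested. The SE of the response within a genotype was accordingly 0.23 for Idi1 and 0.10 for Fasn.

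Under vehicle, 0 of 31 were called between cKO and control by limma, and 0 had an unadjusted p under 0.05, where 0% of all genes were called. The log2 differences, cKO over control, lay between -0.19 and 0.16, and the lowest adjusted p was 0.835. Under E2/MPA 0 of 31 were called, and the background was 0.00606%. Here 2 genes had an unadjusted p under 0.05. Fasn averaged 8812 ± 1184 in cKO and 10868 ± 677 in control (log2 difference -0.31, interval -0.51 to -0.11, adjusted p = 0.252), and Insig2 averaged 918.8 ± 32.4 in cKO and 783.3 ± 69.1 in control (0.23, interval 0.08 to 0.39, adjusted p = 0.27). The cKO and control libraries overlapped for all 31 members under both treatments. Of all genes tested, 1.64% had every cKO library above every control library under vehicle and 1.37% below, and 3.82% above and 2.35% below under E2/MPA. edgeR and DESeq2 on the recovered reads also called 0 members in these comparisons, whereas limma with library weights called 2 under E2/MPA, 1 higher and 1 lower. Under E2/MPA library weights called 3.62% of all genes, DESeq2 1.12% and edgeR 0.00606%.

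The interaction asks whether the response to E2/MPA differs between cKO and control organoids. It was called for 0 of 31 members by limma, edgeR and DESeq2, and none had an unadjusted p under 0.05 in limma, where 0% of all genes were called. The difference of the 2 log2 responses, cKO minus control, was -0.18 for Fasn (interval -0.47 to 0.11), -0.12 for Acss2 (interval -0.60 to 0.37), -0.26 for Pmvk (interval -0.71 to 0.18) and -0.21 for Lss (interval -0.59 to 0.18). All 4 intervals include 0. Acat2, Sqle and Dhcr7, called in control and not in cKO, had differences of -0.09 (interval -0.59 to 0.42), -0.15 (interval -0.49 to 0.18) and -0.27 (interval -0.67 to 0.14), so they were not shown to differ between genotypes. In simulated data a 2-fold interaction was recovered for 58% of changed genes and a 1.5-fold one for 10%. The simulated libraries varied independently, with 50 genes drawn at random changed at each fold. These rates therefore need not hold for the members.

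Other genes of the same pathways were read beside the members, in the mean response, whose background was 19.8% of all genes. Among 9 further genes of sterol synthesis and uptake, 2 (22.2%) were called, both higher, a share near the background. Npc2, a lysosomal cholesterol carrier, was among them, at 3293 ± 55.1 in cKO under E2/MPA, against 2882 ± 122 under vehicle, and at 3936 ± 558 in control under E2/MPA, against 2794 ± 191 under vehicle (mean log2 fold change 0.34, adjusted p = 0.00131). The other called gene, not named here, had the lowest adjusted p of this list (2.09e-07).

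Of 11 other genes of SREBP processing and sterol sensing, 4 (36.4%) were called. The higher ones were 3, Pgrmc1 (0.35), Aup1 (0.22) and Erlin2 (0.14), and Mbtps1, the site-1 protease that cuts SREBP proteins, was lower (-0.12, adjusted p = 0.0326). Of 8 genes of sterol efflux and LXR, 4 (50%) were called, all higher, namely Lpcat3 (0.33), Smpdl3a (0.59), the transporter gene Abcg1 (1.04) and Mylip (0.65), a ubiquitin ligase gene. Of 7 tested genes of sterol storage and oxysterols 1 (14.3%) was called, a share near the background for so short a list. The called gene was Nceh1, a cholesteryl ester hydrolase, as lower (-0.53, adjusted p = 0.00209), while Plin2 was not called (-0.27, adjusted p = 0.358).

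Of 26 other genes of fatty acid and lipid synthesis, 6 (23.1%) were called, 5 as higher and 1 as lower, again near the background. Agpat2, which acylates lysophosphatidic acid, averaged 4714 ± 523 in cKO under E2/MPA, against 1851 ± 210 under vehicle, and 5415 ± 874 in control under E2/MPA, against 2301 ± 791 under vehicle (mean log2 fold change 1.31, adjusted p = 1.4e-05). Elovl5, an elongase of polyunsaturated chains, rose by 0.58 (adjusted p = 0.00011) and Gpam, the mitochondrial glycerol-3-phosphate acyltransferase, by 0.87 (adjusted p = 0.00468). Acsl3, an acyl-CoA synthetase, was the one lower (-0.85, adjusted p = 0.00451). Of 13 genes of fatty acid oxidation 5 (38.5%) were called, all higher, among them Etfdh (0.38), Acadvl (0.36) and Acaa2 (0.61). The median was 0.22 in oxidation, 0.09 in other fatty acid and lipid synthesis, -0.27 in storage, 0.46 in efflux and LXR, 0.04 in SREBP processing and 0.22 in other sterol synthesis and uptake, against 0.35 in both branches of members.

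**Figure D4:**
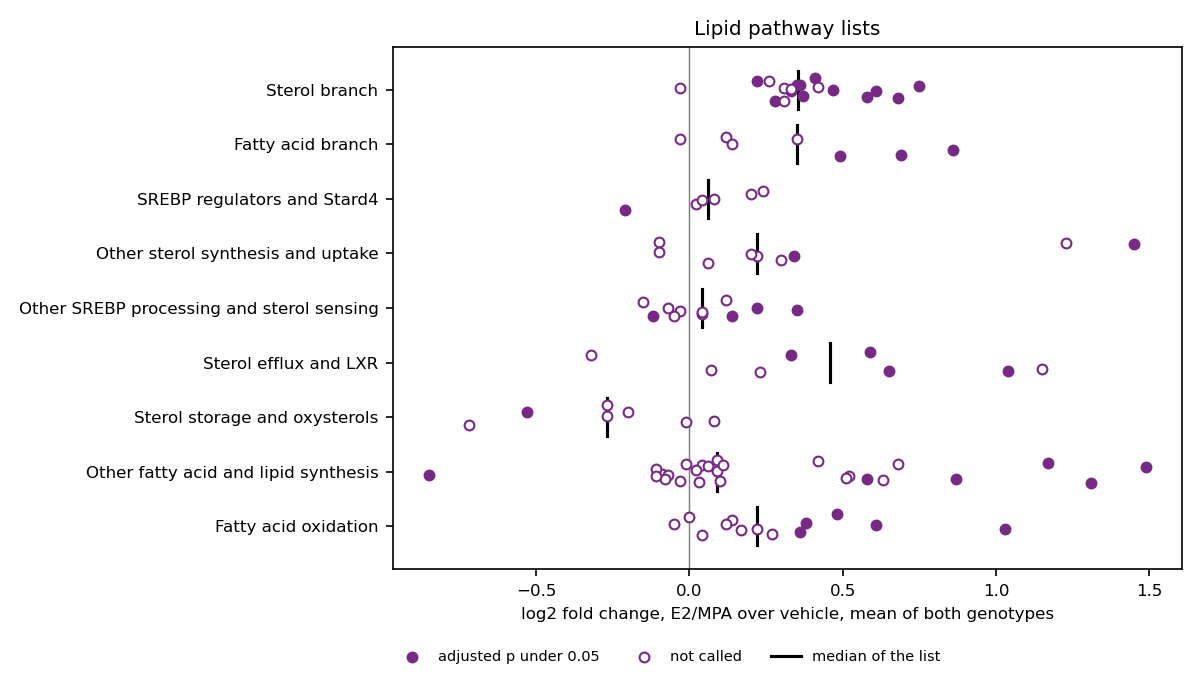
Mean log2 fold change of both genotypes under E2/MPA over vehicle for every tested gene of the 3 groups of members and of 6 other lipid lists, with filled points for an adjusted p under 0.05 and a bar at each list's median. The median is 0.35 in the sterol and fatty acid branches and 0.06 among the regulators.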

How the data were processed

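Per the labels' protocols, RNA was isolated with Trizol and a purification column and made into TruSeq libraries. HISAT2, featureCounts, DESeq2 and build GRCm39 stand in the submitters' processing notes, with no versions. The deposited values are a signal, reads per gene over each library's size factor, as made by the authors. Undoing the factors returned whole reads, within 0.01 read, for 100% of values, and edgeR and DESeq2 ran on these reads as alternatives. GENCODE M21 gave symbols by Ensembl identifier to 22484 of 23306 genes, and genes left without one (822) took 1.83% of reads. Chi-square per degree of freedom between libraries of a group was at least 6.96.

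A single limma fit (version 3.58.1, in R 4.3.3) used log2(value + 1) of the 16 libraries, a scale that compresses changes of low genes, with a mean per group, a mean-variance trend and two-sided tests. Adjusted p-values are limma's, with Benjamini-Hochberg adjustment over 16509 genes, unless another tool is named. In simulated counts the mean-response fit recovered 66% of 1.5-fold and 88% of 2-fold changes. These were changes of genes drawn at random, in libraries that varied independently, so the rates need not hold for the members. The members, lists and tests were chosen with earlier results of these data known. Values were given by library for called members and otherwise for the 2 of each group with the highest mean. Of each other list up to 4 called genes with the lowest adjusted p were named, or the 2 with the highest mean where fewer than 2 were called. Some genes that this rule names are left out of the text. Transcript likeness means at least 95% identity over at least 200 bases.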

Additional observations from a re-analysis of the deposited data

Results flagged for a closer look

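In 12 of 124 combinations of a member and a group of 4 libraries, 1 library stood apart, by a gap to the nearest of the others that exceeded Dixon's 95% critical value as a share of the group's range. For independent, normally spread values about 1 in 20 would do so. The members were not independent, since M4 was the highest of its group in 25 of the 31 and M12 in 26. The share of flags over all genes was not computed, so no excess over chance is shown. M4, under vehicle in control organoids, stood above its group for Acat2 (841 against 580 to 584, share 0.987), Elovl6 (529 against 369 to 383, 0.912), Cyp51 (2788 against 2057 to 2146, 0.879), Scap (1116 against 935 to 960, 0.861), Idi1 (828 against 480 to 531, 0.853) and Nsdhl (837 against 589 to 627, 0.849). M12, under E2/MPA in control organoids, did so for Srebf1 (2036 against 1783 to 1804, 0.918), Mvd (898 against 669 to 694, 0.893) and Acat2 (1374 against 871 to 946, 0.851). In cKO organoids M16 stood above its E2/MPA group for Scap (1015 against 852 to 864, 0.925), and M5 above its vehicle group for Elovl6 (425 against 350 to 358, 0.89) and Srebf2 (6938 against 5754 to 5898, 0.878).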

How the results depend on the processing

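The count of called members moved most in the comparisons within 1 genotype. The share of all genes called, given in brackets, often moved with it, but not always. Without M4 the control share fell while the count of members rose. In cKO organoids 4 members were called (4.19%), against 7 with DESeq2 (7.6%), 9 with library weights (10.2%) and 9 with the stromal covariate (17.8%). With 1 library left out, the cKO count was 1 to 6. It was 1 without M7 (2.34%), M13 (2.19%) or M14 (2.23%), 2 without M8 (2.75%) and 6 without M12 (5.01%). In control organoids 7 were called (8.9%), against 13 with DESeq2 (13.2%), 12 with library weights (15.4%) and 14 with the stromal covariate (24.7%). With only the groups compared, which leaves fewer libraries for the spread, 3 were called in control (2.93%). In cKO the same setting went the other way, adding Acat2, Idi1 and Msmo1 and losing Lss, where 5.32% of all genes were called. With 1 library left out, the control count was 4 to 11. It was 4 without M1 (4.86%) or M10 (4.6%) and 11 without M4 (7.08%). edgeR gave 4 in cKO (4.11%) and 7 in control (9.07%). The mean response called 14 to 23 members over all alternatives, where 13.3% to 38.5% of all genes were called. Library weights called 2 members for cKO against control under E2/MPA, 1 higher and 1 lower, where 3.62% of all genes were called. No other alternative called a member for genotype or interaction. The cause of these shifts was not tested. The fatty acid median ranged from 0.22 (without M14) to 0.47 in cKO and from 0.08 (without M12) to 0.47 (without M11) in control when 1 library was left out. Quantile normalization moved the split of all called genes in control to 783 higher and 833 lower, against 890 and 579, and in the mean response to 1482 and 1939, against 1778 and 1491.

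Signs turned only for members that were not called. With 1 library left out, Hsd17b7 ranged from -0.06 to 0.17 in cKO, -0.32 to 0.01 in control and -0.12 to 0.04 in the mean, Acly from -0.08 to 0.02 in cKO and -0.07 to 0.01 in control, Acaca from -0.01 to 0.18 and Srebf1 from -0.03 to 0.04 in cKO, Srebf2 from -0.03 to 0.07 in cKO, -0.04 to 0.11 in control and -0.02 to 0.06 in the mean, and in control Insig2 from -0.05 to 0.04 and Stard4 from -0.01 to 0.19. Under quantile normalization Srebf2 was at -0.05 in cKO and -0.02 in the mean, Srebf1 at -0.01 in the mean and Insig2 at -0.03 in control. Under upper-quartile rescaling Srebf2 was at -0.03 and -0.01 and Insig2 at -0.02. With library weights Srebf2 was at -0.03, Insig2 at -0.04 and Stard4 at -0.08. With the stromal covariate Hsd17b7 was at -0.00 in cKO and Srebf2 at -0.03 in cKO and -0.01 in the mean. Without M4, M8, M12 and M16 Srebf2 was at -0.05 in cKO and -0.00 in the mean and Stard4 at -0.05 in control, and with edgeR Srebf2 was at -0.00 in cKO.

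The labels do not pair the libraries, whose numbers differ between groups. As a hint from the data, each of the 16 libraries correlated best, among those of its genotype under the other treatment, with the library 8 numbers away (r of 0.386 to 0.746 over 8 pairs). With these pairs as a replicate block, 15 members were called in cKO, 19 in control and 23 in the mean response, against 4, 7 and 16. The same block called 18.8%, 27.1% and 38.5% of all genes, against 4.19%, 8.9% and 19.8%. It called 0 members for either genotype comparison and for the interaction.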
